A study of Mus musculus with 15 samples.

Results

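The genes described here are 35 mouse genes that rod and cone photoreceptors are known for, chosen by symbol, of the 26509 genes listed in at least 1 of the study's count tables. The RPE/choroid table holds 34 of the 35 and the table of cultured mouse RPE (mRPE) cells holds 19. The expression of *Guca1a* was not analysed here. Bulk mRNA was sequenced from 6 samples of dissected mouse RPE/choroid, which is the retinal pigment epithelium with the vascular layer behind it, and from 9 samples of mRPE. The RPE/choroid libraries comprised 3 of WT mice and 3 labelled *Prom1*-KO, from floxed *Prom1* (Prom1fl/fl) mice crossed with RPE65-Cre mice and given tamoxifen by gavage, so that the deletion was aimed at the RPE and not at the photoreceptors. The labels do not say whether the WT mice received tamoxifen or carried Cre or floxed alleles, and give no age per library. The mRPE cells came from pooled C57/BL6J mice and were immortalized with HPV E6/E7. Of these, 4 libraries were WT, and CRISPR/Cas9 clones carrying a *Prom1* deletion gave 3 libraries (KO22) and 2 libraries (KO26), so that each line is 1 clone. For mRPE, the library names give 2 series, 8995 with 1 library of each line and 9262 with the other 6, and these are called batches below. The study found both KO26 libraries to be outliers after batch correction and removed them. They are kept here. Nothing in the labels says which replicates came from separate mice or cultures, so that p-values measure only the spread between these samples.

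Photoreceptors turn light into an electrical signal in a stack of membrane discs, the outer segment. In rods, the light-activated opsin switches on the G protein transducin, transducin switches on the phosphodiesterase PDE6, and the fall in cyclic GMP closes a cation channel. Cones run the same cascade with their own copies of most parts. The RPE faces the outer segments, engulfs their shed tips every day and recycles the visual chromophore, but is not known for the phototransduction genes.

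The transcription factors CRX and NRL bind short motifs in front of many photoreceptor genes. RefSeq promoter windows (GRCm38.p6) matched 28 of the 35 genes by symbol, and their 250 bases before the start were searched on both strands for TAATCC, the core of the CRX and OTX motif, and for TGCTGA, a part of the NRL motif. TAATCC or its complement GGATTA was present for 11 of the 28 genes (39.29%), and for 7.21% of the 27025 genes in the table. TGCTGA or TCAGCA was present for 7 of 28 (25%), and for 18.02% of all genes. A match to these letters is a description and not a bound site. The sequences are those of 2 genes that followed the other rod genes closely in RPE/choroid, *Sag* (chr1:87803430-87803679, + strand) and *Rbp3* (chr14:33953753-33954002, + strand), the cone gene *Gnat2* (chr3:108092816-108093065, + strand), and *Slc24a1* (chr9:64951621-64951870, - strand), the rod gene that departed most from the others. Each is written 5′ to 3′ toward the gene, with either motif in capitals, and none of the motifs overlap.
Sag: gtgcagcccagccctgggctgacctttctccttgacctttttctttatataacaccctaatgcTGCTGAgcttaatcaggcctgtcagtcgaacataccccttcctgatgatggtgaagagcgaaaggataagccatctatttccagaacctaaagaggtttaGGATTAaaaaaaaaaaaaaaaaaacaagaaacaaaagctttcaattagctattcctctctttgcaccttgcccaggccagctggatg
Rbp3: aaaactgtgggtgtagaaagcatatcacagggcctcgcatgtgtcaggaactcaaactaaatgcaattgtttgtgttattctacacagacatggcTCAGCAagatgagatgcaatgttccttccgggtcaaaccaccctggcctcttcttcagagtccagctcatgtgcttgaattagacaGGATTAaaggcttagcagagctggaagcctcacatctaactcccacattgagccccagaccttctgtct
Gnat2: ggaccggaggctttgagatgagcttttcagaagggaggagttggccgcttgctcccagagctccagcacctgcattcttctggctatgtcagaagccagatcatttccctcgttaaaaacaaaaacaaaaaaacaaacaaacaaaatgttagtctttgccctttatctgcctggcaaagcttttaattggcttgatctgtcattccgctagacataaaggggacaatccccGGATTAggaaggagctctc
Slc24a1: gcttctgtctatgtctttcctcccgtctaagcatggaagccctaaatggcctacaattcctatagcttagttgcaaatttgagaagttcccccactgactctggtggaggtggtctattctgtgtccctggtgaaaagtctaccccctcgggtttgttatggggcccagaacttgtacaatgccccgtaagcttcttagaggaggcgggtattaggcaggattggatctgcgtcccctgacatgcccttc
*Sag* and *Rbp3* each held 1 motif of both kinds, at -187 and -87 and at -155 and -69 from the start. *Gnat2* held the CRX core alone, at -19. In the 250 bases before *Slc24a1* neither set of letters was found, nor was either found before *Nrl*, *Nr2e3*, *Prph2*, *Tulp1*, *Grk1*, *Pdc* and *Impg1*, which followed the rod genes closely.

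The RPE/choroid libraries held 48154444 to 61766179 counts and the mRPE libraries 8076188 to 27537863. Mitochondrially encoded genes took 64.93% to 71.31% of the counts in 5 RPE/choroid libraries and 84.17% in labelled KO 3, whose TMM factor was 0.488 against 1.07 to 1.326 in the others. Values are given as CPM, counts scaled to library size with TMM factors, where TMM is a scaling that sets most genes equal between libraries. A count of 3 corresponded to at most 0.0995 CPM in RPE/choroid and 0.347 CPM in mRPE, and limits of this kind cover counting error only. *Prom1* itself lay at 48.7, 49.6 and 53.3 CPM in WT and at 49.9, 48.1 and 35.5 CPM in the RPE/choroid libraries labelled KO. This difference was not significant (log2 fold change -0.18, SE 0.16, adjusted p = 0.824, edgeR's quasi-likelihood test), so the counts of the targeted gene do not separate the labelled groups, and the RPE is only a part of this tissue. *Prom1* was not analysed here in mRPE. *Rpe65* and *Rgr*, in contrast, are RPE genes that were called lower there, by 6.06 and 5.23 on the log2 scale. The marker genes of RPE summed to 2346 to 3350 CPM in WT and 815 to 1034 CPM in labelled KO.

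Photoreceptor transcripts were present in each of the 6 RPE/choroid libraries, and their amount differed between libraries of the same genotype far more than most genes did. The 34 genes summed to 243.9, 153.2 and 1407 CPM in WT 1, 2 and 3, and to 841.4, 290.5 and 108.7 CPM in labelled KO 1, 2 and 3. WT 3 and labelled KO 1 were the highest, 1 in each genotype, and labelled KO 3 and WT 2 were the lowest, again 1 in each. The group means were 601.4 ± 699.2 (SD, n = 3) and 413.5 ± 381.5 (SD, n = 3) and the groups overlapped over most of their range. In bulk RNA, fewer cells of a type and less RNA per cell cannot be told apart. Every one of the 34 genes had more than 3 counts in every library.

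**Figure D1:**
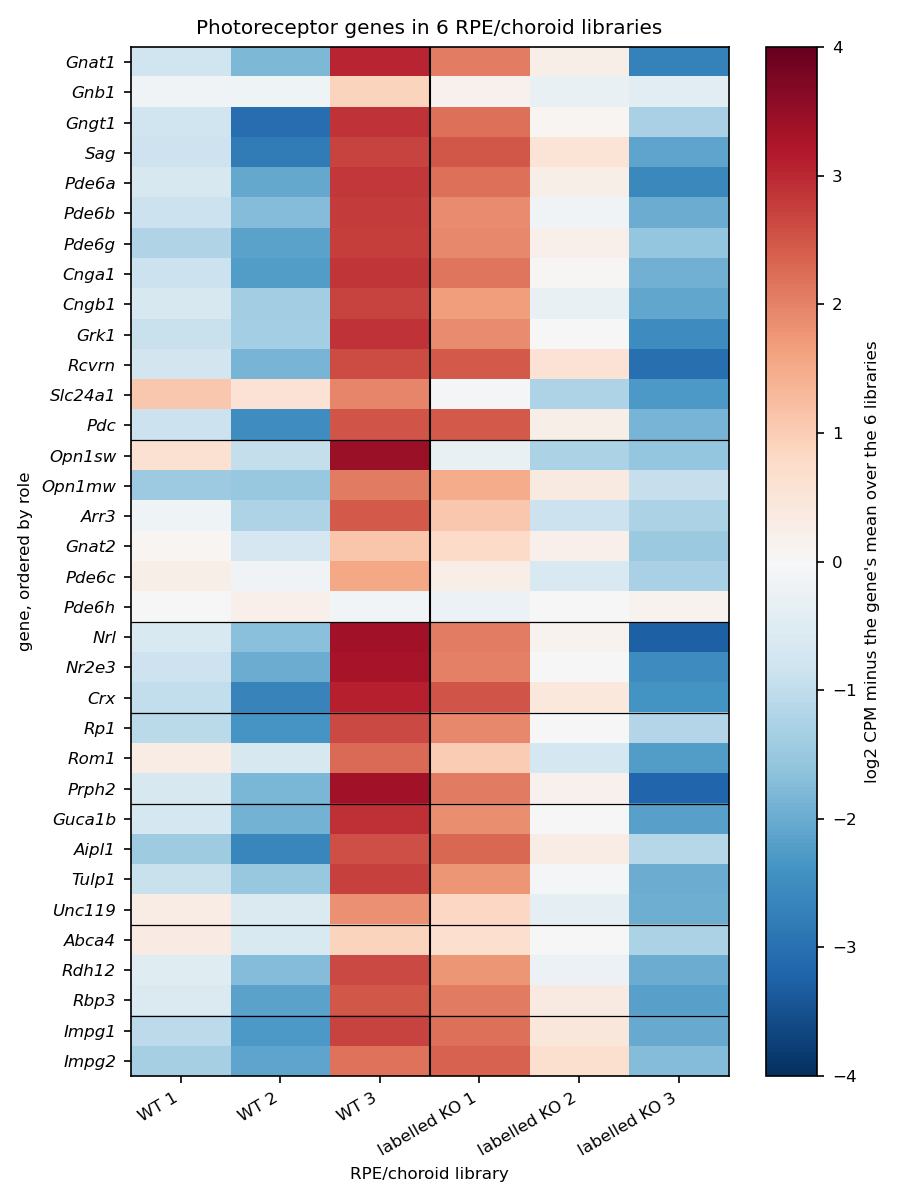
Heatmap of the log2 CPM of 34 photoreceptor genes (rows, ordered by role with lines between roles) in the 6 RPE/choroid libraries (columns), each gene centred on its own mean. WT 3 was the highest library for 32 genes and labelled KO 3 the lowest for 22, while *Pde6h* is nearly flat and *Slc24a1* is higher in all 3 WT libraries.

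The median within-group SD of the 34 genes was 2.19 on the log2 CPM scale, and that of all 24926 genes tested was 0.336. Other lists also varied widely within groups, with medians of 1.66 for the other photoreceptor genes, 1.59 for amacrine and horizontal cells, 1.5 for bipolar cells, 1.45 for skeletal muscle and 1.22 for red blood cells, whereas RPE genes had 0.368. These are descriptions, as the genes of a list vary together. WT 3 was the highest library for 32 of the 34 genes, the exceptions being *Impg2*, highest in labelled KO 1, and *Pde6h*, highest in WT 2. Labelled KO 3 was the lowest library for 22 genes and WT 2 for 11. In 31 of 34 genes labelled KO 1 lay above both WT 1 and WT 2, and *Slc24a1*, *Opn1sw* and *Pde6h* were the 3 that did not. The ratio of the highest to the lowest library was 30.66 in the median gene and ranged from 1.346 for *Pde6h* to 100.0 for *Nrl*.

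Other cell lists fixed for the same tissue moved with the photoreceptor genes in part. The 30 other photoreceptor genes, led by *Reep6*, *Rpgrip1*, *Gucy2f* and *Rgs9*, summed to 175.0, 143.7 and 764.6 CPM in WT and to 451.0, 184.4 and 104.4 CPM in labelled KO, in the same order of libraries. The bipolar cell genes, led by *Trpm1*, *Prkca*, *Car8* and *Lrtm1*, lay at 112.5 to 186.6 CPM in WT and 140.1 to 276.3 CPM in labelled KO, and the Mueller glia genes, led by *Glul*, *Dkk3*, *Rlbp1* and *Car14*, at 321.3 to 533.8 and 404.7 to 612.2 CPM. *Trpm1*, *Rlbp1* and *Dkk3* are also expressed outside the retina, in pigmented or other cells. Neither sum was highest in WT 3, but the bipolar sum was carried by *Trpm1* (83.38 to 231.7 CPM), and *Vsx1*, *Prkca*, *Cabp5*, *Pcp2*, *Gng13* and *Lrtm1* of that list were each highest in WT 3. The Mueller glia sum hides opposite differences. *Dkk3* lay at 88.72 to 145.7 CPM in WT and 149.9 to 198.5 in labelled KO. *Rlbp1*, which is also on the RPE list, lay at 31.29 to 56.76 and 6.37 to 14.02. In labelled KO against WT, 7 of the 10 Mueller glia genes had log2 fold changes above 0 and 3 below. By edgeR's quasi-likelihood test 6 had an unadjusted p under 0.05, against 2068 of all 24926 genes, but the lowest adjusted p was 0.0929. The amacrine and horizontal cell genes, led by *Tfap2b*, *Slc6a9*, *Tfap2a* and *Gad1*, summed to 38.39 to 56.12 CPM and the ganglion cell genes, led by *Rbpms*, *Nefm*, *Nefl* and *Nrn1*, to 34.66 to 55.31 CPM over the 6 libraries, both highest in WT 3. Skeletal muscle genes (*Myh4*, *Atp2a1*, *Tnnt3*, *Myl1*) also varied widely, from 76.37 CPM in labelled KO 1 to 1077 in WT 3, but labelled KO 3, the library with the least photoreceptor RNA, held 1064 CPM of them. The part of other cells in the photoreceptor differences was not tested.

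**Figure D2:**
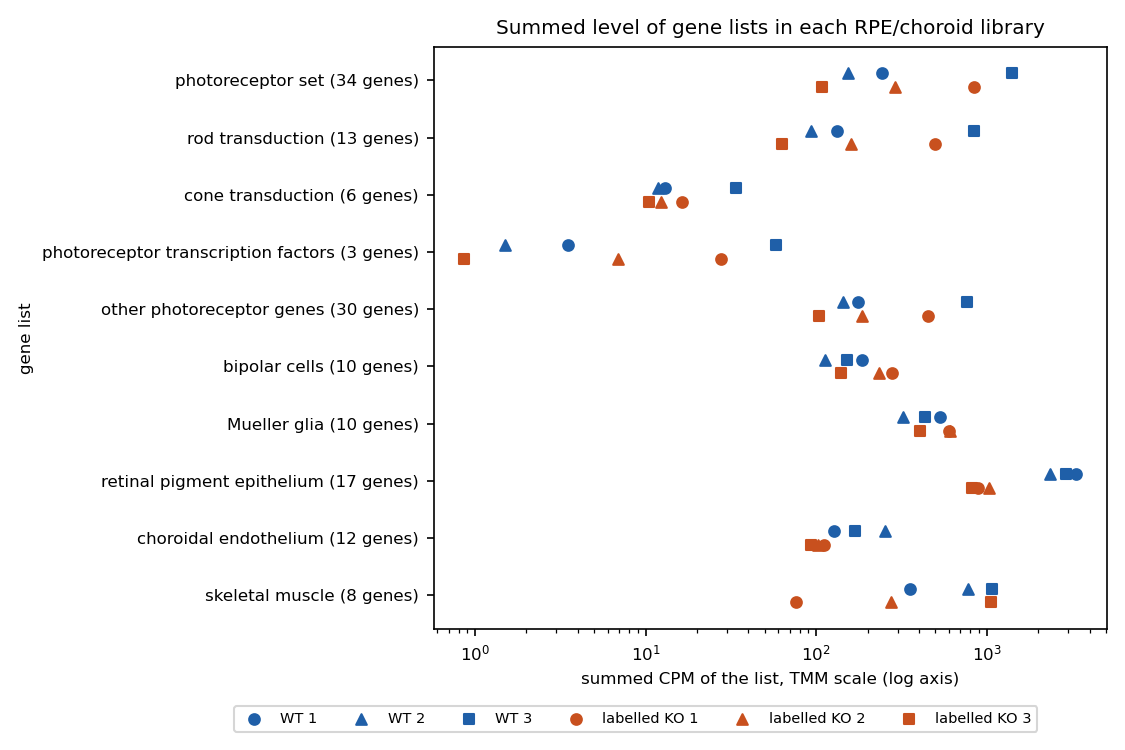
Summed CPM (log axis) of 10 gene lists in each of the 6 RPE/choroid libraries, with circles, triangles and squares for replicates 1, 2 and 3 and colour for the group. The photoreceptor lists interleave the genotypes, while the sums of the RPE list (2346 to 3350 CPM in WT and 815 to 1034 CPM in labelled KO) and the endothelium list (127.0 to 252.2 and 93.68 to 110.7 CPM) separate them. None of the 12 endothelium genes was significant (lowest adjusted p = 0.0993, edgeR's quasi-likelihood test). Of all tested genes, 14.6% had groups that did not overlap.

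The rod transduction genes summed to 133.2, 93.44 and 843.6 CPM in WT and to 495.2, 160.8 and 63.19 CPM in labelled KO, of which the widely used *Gnb1* gave 38.98 to 97.71 CPM. *Gnat1* (GRCm39 chr9:107551673-107556911, - strand), the alpha subunit of rod transducin, lay at 17.31, 8.66 and 250.7 CPM in WT and at 123.8, 35.33 and 4.61 CPM in labelled KO. *Sag* (arrestin), which quenches the activated opsin, lay at 7.97, 2.06 and 91.75 CPM in WT and at 80.21, 20.94 and 3.28 CPM in labelled KO. Each group thus held a low, a middle and a high library. The catalytic PDE6 subunits behaved alike: *Pde6a* spanned 1.52 to 44.82 CPM in WT and 1.06 to 28.79 CPM in labelled KO, and *Pde6b* spanned 3.11 to 72.92 and 2.65 to 38.69 CPM. *Pde6g*, the inhibitory subunit, ranged from 2.23 to 66.67 CPM over the 6 libraries and *Gngt1*, the transducin gamma subunit, from 0.24 to 14.65 CPM. The channel subunits *Cnga1* and *Cngb1* reached 34.57 and 18.29 CPM in WT 3 and fell no lower than 1.01 and 0.66 CPM in any library. *Grk1*, the kinase of the opsin, *Rcvrn*, the calcium sensor that restrains it, and *Pdc* (phosducin), which binds transducin beta-gamma, differed 42.64-, 49.39- and 32.21-fold between their highest and lowest libraries. *Gnb1*, the transducin beta subunit that many cell types also use, differed only 2.507-fold (38.98 to 97.71 CPM).

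Per kilobase of exon, which allows genes to be compared, *Gnat1* had the highest level of the 34 in WT, at 30.44 CPM per kb, followed by *Pde6g* at 10.54 and *Prph2* at 8.83. *Gnat1* also led in labelled KO, at 18.02 CPM per kb. *Gnat2* was the lowest in WT, at 0.56 CPM per kb, and the other cone genes lay between 0.60 (*Pde6c*) and 1.65 (*Opn1sw*). These are means over 3 libraries that differ many-fold, so neighbours in this order do not differ beyond their spread. *Gnat1* overlaps the antisense lncRNA *Gm57061*, and the strand setting of the counting is not given in the sources used here, so that the reads of the pair may not be separated. *Gm57061* lay at 1.13 to 54.79 CPM.

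To follow the rods as one quantity, the mean log2 CPM of the rod transduction genes without *Gnb1* was taken in each library and centred over the 6 (the rod level). It was -0.68, -1.83 and 2.69 in WT and 1.92, 0.03 and -2.13 in labelled KO. The order of libraries by rod level was therefore WT 3, labelled KO 1, labelled KO 2, WT 1, WT 2 and labelled KO 3, and 14 of the 34 genes followed it exactly. Of the 34, 28 correlated with it at r above 0.9 over the 6 libraries, and 677 of all 24926 genes tested (2.72%) did. These values are a description, as the 12 genes that make up the rod level are among the 34.

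Genes outside the rod list followed the rod level about as closely. *Guca1b*, which activates the guanylate cyclase when calcium falls, had 3.28, 1.45 and 40.61 CPM in WT and 19.45, 5.40 and 1.19 CPM in labelled KO (r = 0.999, n = 6). The photoreceptor transcription factors *Nrl* (0.30 to 29.86 CPM), *Nr2e3* (0.20 to 11.25 CPM) and *Crx* (0.30 to 16.79 CPM) had slopes of 1.19, 1.11 and 1.21 on the rod level, where 1 means a doubling for each doubling of the rod genes. *Nrl* is the factor that drives the rod fate and *Nr2e3* represses cone genes in rods. Of the genes for outer segment structure, *Prph2*, which shapes the disc rim, ranged from 0.80 to 73.02 CPM (slope 1.21), and *Rp1*, a microtubule protein of the outer segment, from 2.49 to 79.63 CPM (slope 0.95). *Rom1*, the rim partner of *Prph2*, rose less steeply, with a slope of 0.71, and its ratio to *Prph2* was 1.44, 1.70 and 0.35 in WT and 0.352 and 0.401 in labelled KO 1 and 2. The ratio was above 1 in the 3 libraries of lowest rod level and below 1 in the other 3.

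*Aipl1*, a chaperone of PDE6, *Tulp1*, which takes part in protein transport to the outer segment, and *Unc119*, which carries transducin, had slopes of 0.98, 0.94 and 0.59. *Rbp3*, the retinoid carrier between photoreceptors and RPE, and *Rdh12*, which reduces retinal in the inner segment, had slopes of 1.02 and 0.90, whereas *Abca4*, the retinoid flippase of the disc rim that RPE cells are also known to express, had 0.37. *Abca4* lay at 52.67, 27.79 and 77.37 CPM in WT and at 66.55, 42.26 and 17.35 CPM in labelled KO, so it stayed at a substantial level where *Gnat1* was near its lowest. *Impg1* and *Impg2*, proteoglycans of the matrix around the photoreceptors, had slopes of 1.06 and 0.96. *Impg2* lay at 1.36, 0.79 and 15.19 CPM in WT and at 17.41, 5.31 and 1.03 CPM in labelled KO. Its highest value was in labelled KO 1.

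The cone genes followed the rods more loosely. *Opn1mw*, the middle-wavelength opsin, lay at 0.41, 0.39 and 4.74 CPM in WT and at 3.13, 1.44 and 0.60 CPM in labelled KO. *Opn1sw*, the short-wavelength opsin, lay at 1.47, 0.51 and 10.67 CPM in WT and at 0.80, 0.41 and 0.33 CPM in labelled KO. The ratio of *Opn1sw* to *Opn1mw* was 3.62, 1.30 and 2.25 in WT and 0.26, 0.28 and 0.56 in labelled KO, without overlap between the groups, a ratio looked at after the values were seen. In labelled KO it rests on 41, 25 and 10 counts of *Opn1sw* and 161, 88 and 18 of *Opn1mw*. Of single genes, 14.6% of all tested did not overlap either. No cone gene was significant in labelled KO against WT (lowest adjusted p = 0.503, edgeR's quasi-likelihood test). *Arr3* (cone arrestin), *Gnat2* (cone transducin) and *Pde6c* (the cone phosphodiesterase) reached 4.39, 3.96 and 3.13 CPM in WT 3, with slopes of 0.69, 0.45 and 0.38. *Pde6h*, the inhibitory subunit of the cone enzyme, ran flat at 6.27 to 8.44 CPM in all libraries and had a slope of -0.07. *Pde6h* overlaps *Arhgdib* and *Opn1sw* overlaps *Calu*, each on the opposite strand, and these neighbours lay at 12.68 to 22.09 and 30.3 to 38.09 CPM, so the values of both cone genes are uncertain.

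**Figure D3:**
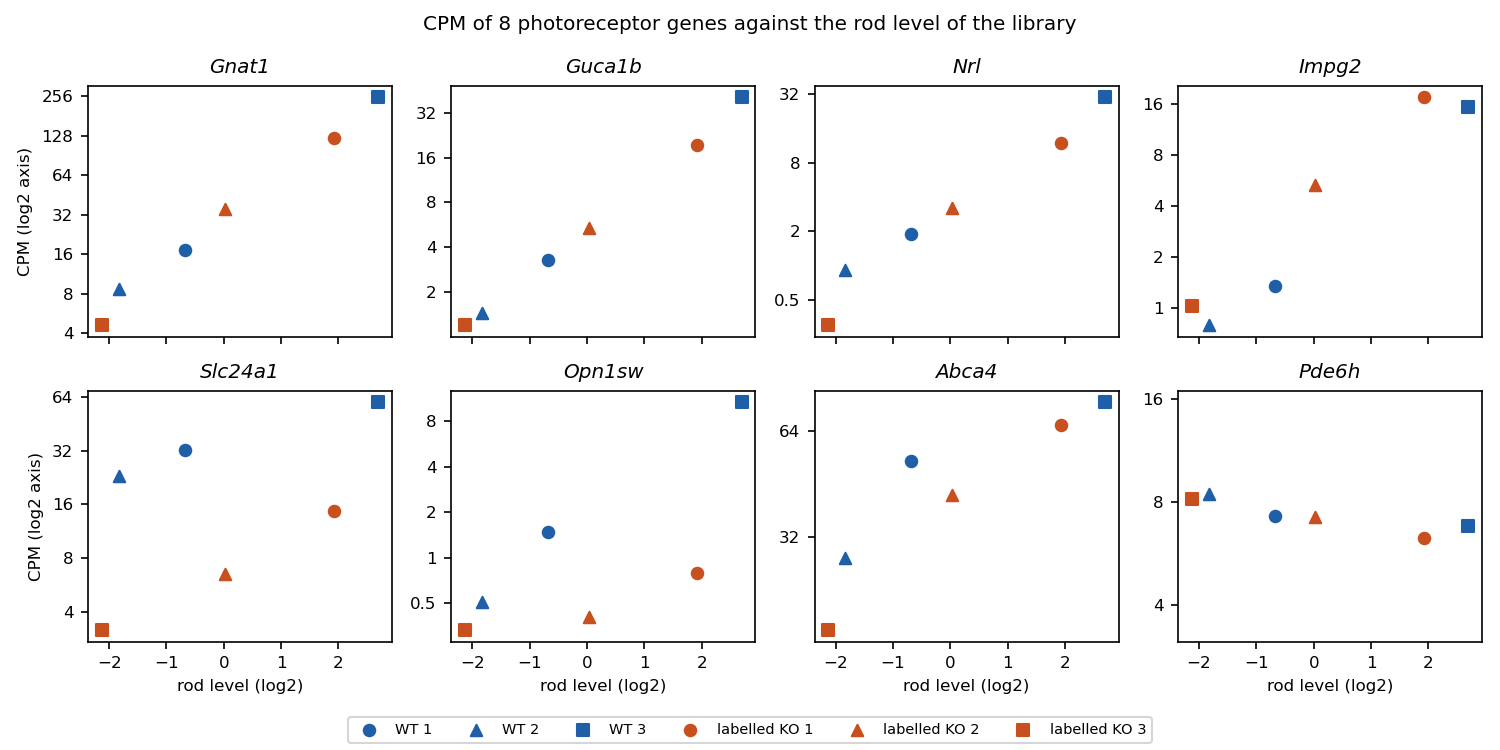
CPM (log2 axis) of 8 photoreceptor genes against the rod level of each RPE/choroid library, blue for WT and orange for labelled KO. *Gnat1*, *Guca1b* and *Nrl* rise with the rod level along a single line, *Impg2* places the labelled KO libraries somewhat higher, *Slc24a1* and *Opn1sw* place them lower, and *Pde6h* does not rise.

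The comparison of RPE/choroid labelled *Prom1*-KO with WT asks whether the deletion in the RPE was accompanied by a different amount of photoreceptor RNA. By edgeR's quasi-likelihood test, where a gene was called if its adjusted p was below 0.05 and its log2 fold change exceeded 1.2 in size, none of the 34 genes was called, against 47 of all 24926 genes (0.189%). At an unadjusted p under 0.05 there were 2 of the 34, *Slc24a1* and *Opn1sw*, and 2068 of all 24926 genes. DESeq2's Wald test called 1 of the 34, *Slc24a1*, and 84 genes higher and 189 lower over all. Point estimates were below 0 for 29 of 34 genes with a median log2 fold change of -0.48, against 0.01 over all genes. *Gnat1* had a log2 fold change of -0.76 (SE 1.4, adjusted p = 0.935) and *Sag* one of 0.04 (SE 1.4, adjusted p = 0.998). The standard error exceeded the size of the estimate for most of the 34 genes.

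The direction of this median rested on single libraries. Without WT 3, 30 of 34 estimates were above 0, with a median of 1.96, and without labelled KO 1, 33 were below 0, with a median of -1.91. Without labelled KO 3, the library richest in mitochondrial counts, 19 were below 0 with a median of -0.18. None of the 34 genes was called in any of these fits. With total counts in place of TMM the median of the 34 was -0.86 and that of all genes -0.46. The other photoreceptor list gave the same picture, with none of its 30 tested genes called and a median of -0.45.

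*Slc24a1* (GRCm39 chr9:64830143-64858889, - strand), the rod sodium/calcium-potassium exchanger that removes calcium from the outer segment, was the only gene of the 34 whose groups did not overlap. It lay at 32.22, 22.98 and 59.58 CPM in WT and at 14.66, 6.5 and 3.15 CPM in labelled KO. Its log2 fold change was -2.23 (SE 0.58, adjusted p = 0.301), not significant over all genes, and 14.6% of all tested genes had groups that did not overlap. Its ratio to *Gnat1* was 1.86, 2.65 and 0.24 in WT and 0.12, 0.18 and 0.68 in labelled KO, so that in WT 1 and WT 2 it exceeded the most abundant rod transcript. The summed RPE marker genes also separated the groups (2346 to 3350 CPM in WT, 815 to 1034 CPM in labelled KO), with 5 of 17 called lower. Of that list *Rgr* lay at 546.1 to 786.1 and 6.70 to 30.72 CPM, while the pigment genes *Tyrp1* (292.3 to 373.8 and 269.5 to 330.7 CPM) and *Pmel* (146.5 to 187.9 and 128.1 to 185.7 CPM) overlapped between the groups. Their part in the *Slc24a1* difference was not tested.

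A second fit, chosen after seeing the data, added the rod level of each library as a term, which compares the genotypes at equal rod level. Genes of the rod list, *Slc24a1* included, are in that fit partly compared with themselves. Of the 34 genes, *Slc24a1* alone was called (log2 fold change -2.33, SE 0.22, adjusted p = 0.0135, edgeR's quasi-likelihood test), with 76 of 24926 genes called (0.305%). The call was kept in 4 of 6 fits that left out 1 library and was lost without WT 2 (adjusted p = 0.0961) and without labelled KO 2 (adjusted p = 0.0936), at log2 fold changes of -2.26 and -2.27. At an unadjusted p under 0.05 there were 11 of the 34, and 2550 of all 24926 genes.

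Most estimates lay near 0 in this fit, with a median of -0.11 and 20 of 34 below 0. *Gnat1* stood at -0.14 (SE 0.18) and *Guca1b* at -0.10 (SE 0.13). Standard errors fell, for *Prph2* from 1.46 to 0.19. The lowest estimates after *Slc24a1* were those of *Opn1sw* at -2.28 (SE 0.47, adjusted p = 0.149), *Rom1* at -1.18 (SE 0.19, adjusted p = 0.0672), *Pde6c* at -1.05 (SE 0.22, adjusted p = 0.153) and *Unc119* at -0.90 (SE 0.19, adjusted p = 0.153), by edgeR. The highest were those of *Impg2* at 0.99 (SE 0.16, adjusted p = 0.0742), *Aipl1* at 0.92 (SE 0.28, adjusted p = 0.344) and *Sag* at 0.74 (SE 0.19, adjusted p = 0.232). None of these 7 passed the test. Without WT 3 *Rom1* was called lower beside *Slc24a1*, and without labelled KO 3 *Opn1sw* was.

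**Figure D4:**
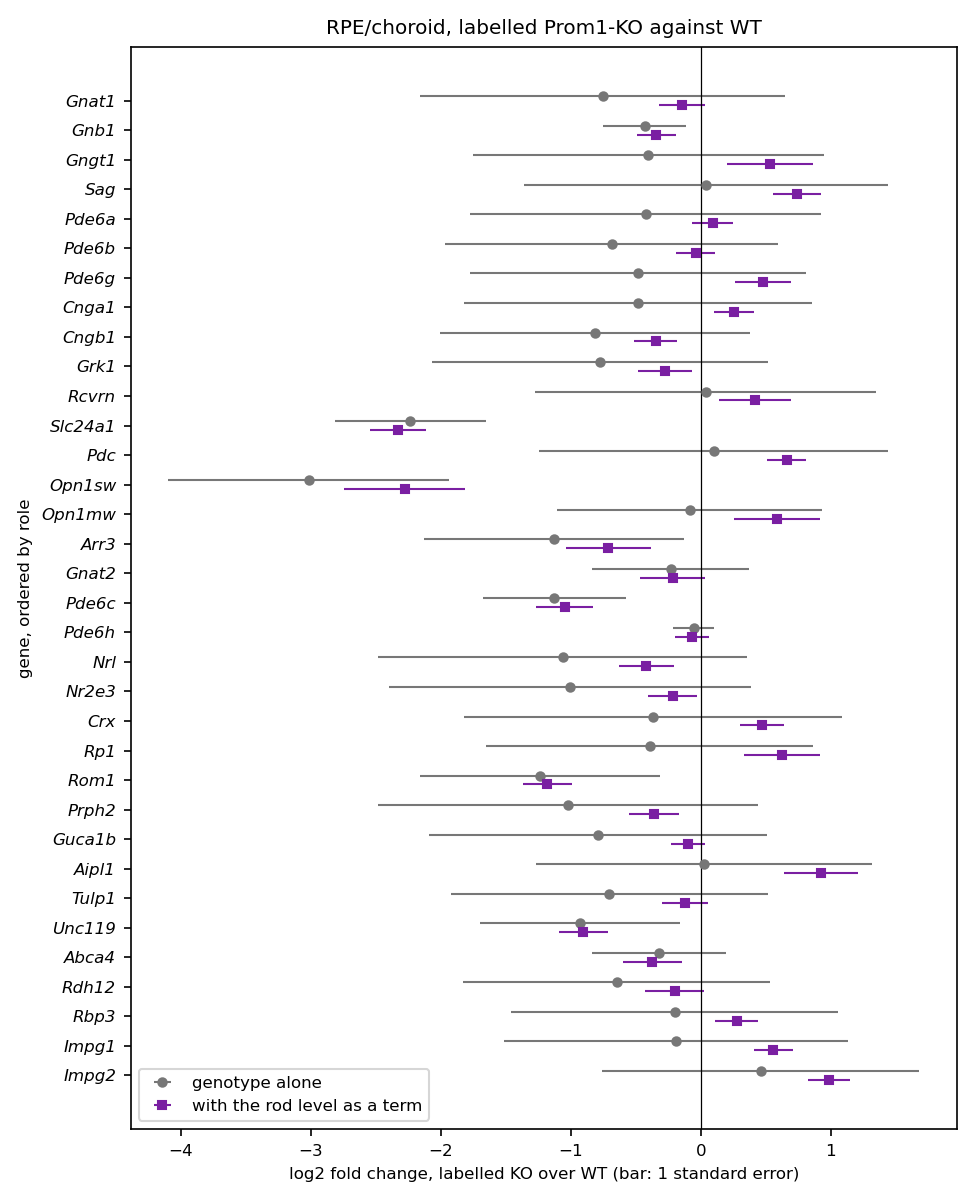
Log2 fold change of RPE/choroid labelled *Prom1*-KO over WT for 34 photoreceptor genes, with bars of 1 standard error, from the fit on genotype alone (grey circles) and with the rod level as a term (purple squares). The bars shrink in the second fit and most estimates come to lie within 1 of 0, with *Slc24a1* (-2.33) and *Opn1sw* (-2.28) lowest.

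By a rule fixed for naming, the genes outside all lists whose log2 CPM was most like the rod level were taken among the 5011 genes with a mean of at least 10 CPM, of which 88 (1.76%, list genes included) had r above 0.9 over the 6 libraries. They were *Gm57061*, which overlaps *Gnat1*, with r = 0.991, and *Epm2aip1*, *Btrc*, *Pcbp3*, *Madd*, *Zwint*, *Shank1*, *Atp1b2*, *Rufy3* and *Mamld1*, with r of 0.988 to 0.967. *Gm57061* spanned 1.13 to 54.79 CPM, and *Epm2aip1* ran from 14.63 to 17.58 CPM. *Atp1b2*, a sodium pump beta subunit, lay at 58.26, 36.77 and 111.1 CPM in WT and 93.39, 70.36 and 31.35 CPM in labelled KO.

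In cultured mRPE cells, which hold no retina, photoreceptor transcripts were few. Of the 35 genes, 16 had no row in the table, among them *Gnat1*, *Gngt1*, *Pde6a*, *Cnga1*, *Grk1*, *Pdc*, *Opn1mw*, *Prph2*, *Rp1*, *Tulp1*, *Rbp3*, *Impg1* and the factors *Nrl*, *Nr2e3* and *Crx*, and these were not analysed here. Of the 19 listed, 17 stayed under 10 CPM in all 9 libraries, 5 stayed under 1 CPM, and 7 had 3 or fewer counts in at least 1 library. The exceptions were *Gnb1*, at 109.8 to 323.5 CPM, and *Pde6h*, at 25.65 to 53.73 CPM. *Pde6h* overlaps *Arhgdib*, at 39.77 to 83.11 CPM in these cells. The mean of 17 of the 19 genes was higher in WT RPE/choroid than in WT mRPE, but both tables were scaled separately and this was not tested. Those RPE/choroid means lean on WT 3, where the 34 genes summed to 1407 CPM against 243.9 and 153.2 in WT 1 and 2. In WT 2, *Gnb1*, *Sag*, *Pde6b*, *Cngb1*, *Rcvrn*, *Opn1sw*, *Arr3*, *Gnat2*, *Pde6h*, *Guca1b*, *Aipl1*, *Rdh12* and *Impg2* lay below their WT mRPE means. The gap was wide for *Impg2* (0.79 against 4.2 CPM) and narrow for *Sag* (2.06 against 2.11 CPM). *Pde6g*, *Pde6c*, *Rom1*, *Unc119*, *Abca4* (27.79 against 0.92 CPM) and *Slc24a1* (22.98 against 1.17 CPM) lay above theirs in the same library.

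KO22 was compared with WT mRPE over 7 libraries with the batch as a term, and 4 of the 19 genes were called, 1 higher and 3 lower, against 5154 of 20455 genes (25.2%) overall. *Abca4* had 0.64, 0.89, 0.79 and 1.36 CPM in WT and 0.09, 0.24 and 0.16 CPM in KO22, with no overlap (log2 fold change -2.36, SE 0.48, adjusted p = 0.00259, edgeR). *Rdh12* had 0.16, 0.75, 0.49 and 0.86 CPM in WT and 0, 0.24 and 0.08 CPM in KO22 (log2 fold change -2.11, SE 0.61, adjusted p = 0.0155, edgeR). These retinoid-handling genes had 8 to 19 and 4 to 12 counts per WT library and at most 5 in KO22, so the folds rest on few reads, and the *Rdh12* groups overlapped by their batch 8995 WT library. *Rom1* had 1.51, 0.69, 0.98 and 1.29 CPM in WT and 0.52, 0.53 and 0.23 CPM in KO22, without overlap (log2 fold change -1.35, SE 0.42, adjusted p = 0.0223, edgeR). The call of *Rom1* was lost without WT 4 (adjusted p = 0.0638) or KO22 3 (adjusted p = 0.0671), and that of *Rdh12* without KO22 3 (adjusted p = 0.0625) or with no batch term (adjusted p = 0.0682).

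*Rcvrn* was the gene called higher. It had 0.16, 0.69, 0.39 and 0.50 CPM in WT and 2.85, 1.64 and 1.01 CPM in KO22, without overlap, or 4 to 10 counts against 13 to 34 (log2 fold change 2.09, SE 0.54, adjusted p = 0.00915, edgeR). The overlapping gene on the opposite strand, *Glp2r*, lay at 2.98 to 3.52 CPM in WT, at 16.6, 10.27 and 12.03 CPM in KO22 and at 3.43 and 4.28 CPM in KO26, and its part in the *Rcvrn* counts was not tested. *Gnb1* had 187.7, 113, 109.8 and 111.2 CPM in WT and 323.5, 210.1 and 231.1 CPM in KO22, and its log2 fold change of 0.93 (SE 0.10, adjusted p = 6.78e-05, edgeR) was below the fold limit. *Pde6b* likewise passed on the adjusted p alone (log2 fold change -0.97, SE 0.30, adjusted p = 0.02, edgeR), at 1.75 to 4.59 CPM in WT and 1.55 to 1.83 CPM in KO22. The other 13 genes did not pass the adjusted p. *Sag* lay at 1.58 to 2.85 CPM in WT and at 3.72, 0.24 and 0.62 CPM in KO22, and its batch 8995 library alone was high.

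In KO26, none of the 19 genes was called against WT by edgeR, with 399 of 20737 genes called (1.92%). All values of KO26, here and against KO22, rest on the libraries that the study removed as outliers. An unadjusted p under 0.05 was found for 4163 of all 20737 genes and for 2 of the 19. Those 2 were *Slc24a1*, at 0.68 to 1.47 CPM in WT and 0.32 and 0.46 CPM in KO26 (log2 fold change -1.43, SE 0.60, adjusted p = 0.218), and *Pde6h*, at 28.28 to 40.21 and 53.73 and 38.86 CPM (log2 fold change 0.37, SE 0.14, adjusted p = 0.184). DESeq2's Wald test also called none. The estimates lay above 0 for 11 genes and below for 8.

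The clones were compared with each other in the fit over all 9 libraries. *Abca4* (log2 fold change of KO22 over KO26 -2.11, SE 0.58, adjusted p = 0.017) and *Rdh12* (-2.84, SE 0.76, adjusted p = 0.0147) were called lower in KO22 and *Rcvrn* higher (2.16, SE 0.73, adjusted p = 0.0411), by edgeR, which is 3 of 19 genes, with 3797 of 20737 genes called (18.3%). Each of these calls rested on single libraries. That of *Rcvrn* was lost without any one of WT 2, 3 or 4, KO22 1 or 2, or KO26 1 (adjusted p = 0.052 to 0.326), with a log2 fold change of 0.93 without KO22 1 and 1.3 without KO26 1. The call of *Abca4* was lost without KO22 3 (adjusted p = 0.0515) or KO26 2 (adjusted p = 0.092) and that of *Rdh12* without KO26 1 (adjusted p = 0.0754), and with no batch term none of the 3 was called (adjusted p = 0.0533 to 0.0969). *Abca4* had 0.46 and 0.93 CPM in KO26, *Rdh12* had 0.51 and 0.81, and *Rcvrn* had 0.23 and 0.69, inside the range of the WT libraries except for the batch 8995 value of *Abca4*, which was below it, and the batch 9262 value of *Rcvrn*, which was just above it. *Rom1* in KO26, at 1.11 and 0.23 CPM, had one value within the WT range and one just under the lowest of KO22. The cone genes *Gnat2* (1.65 to 3.85 CPM) and *Opn1sw* (3.16 to 8.13 CPM), *Impg2* (2.77 to 4.97 CPM) and the low genes *Arr3*, *Pde6c*, *Pde6g*, *Cngb1*, *Guca1b*, *Aipl1* and *Unc119* were not called between any of the lines. *Opn1sw* overlaps *Calu*, which lay at 339.9 to 929.6 CPM in mRPE.

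**Figure D5:**
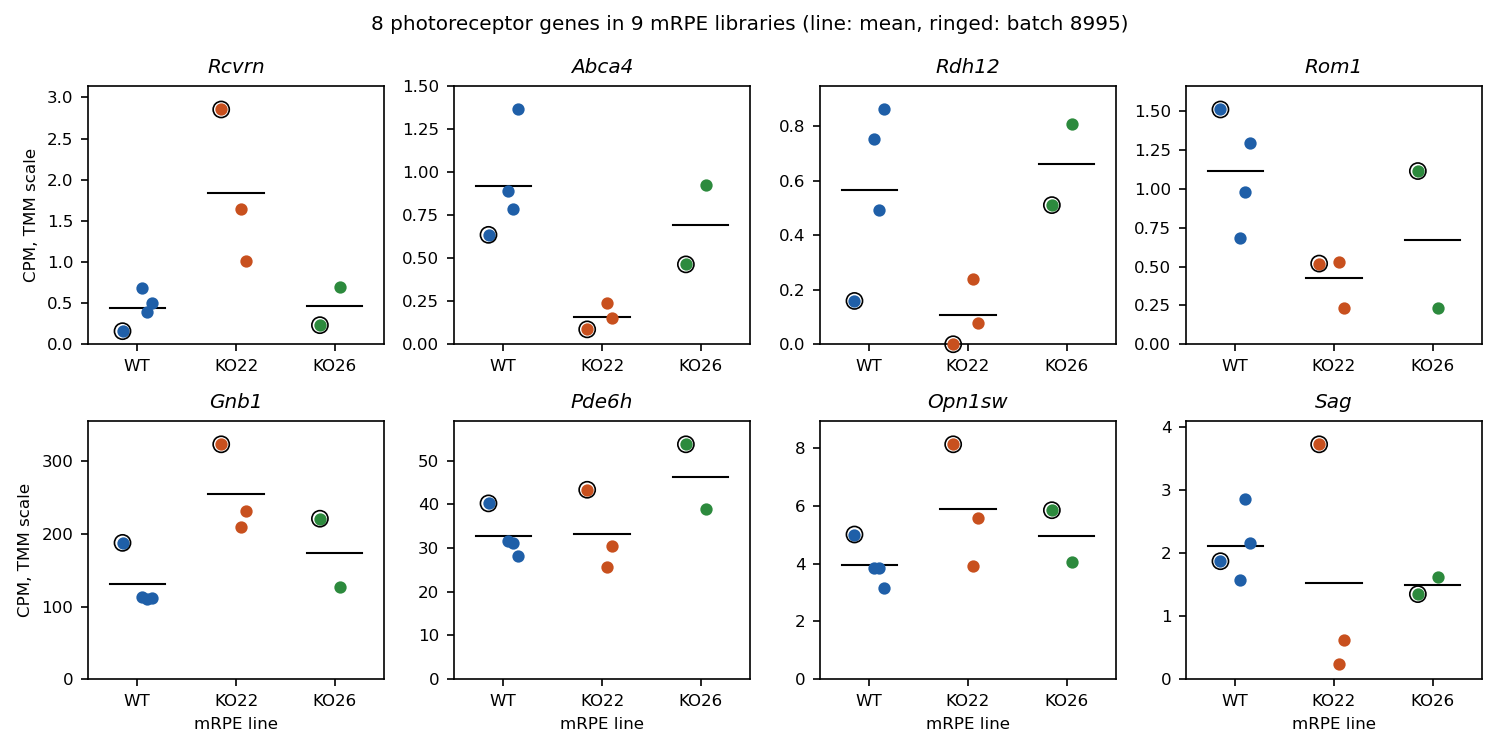
CPM of 8 photoreceptor genes in the 9 mRPE libraries by line, with points for libraries, lines for means and rings for the library of batch 8995. *Abca4*, *Rdh12* and *Rom1* are lowest on average in KO22, *Rcvrn* is highest there, and *Gnb1* in batch 8995 lies above the batch 9262 libraries of the same line.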

How the data were processed

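RNA-seq of 6 RPE/choroid and 9 mRPE libraries was analysed. Per the labels and the methods, the authors trimmed reads with Trim Galore 0.6.7, aligned them to mm39 with STAR, counted reads per gene and left out genes with low counts. The deposited raw counts per gene were used, and the deposited normalized values were not used. The study names a TruSeq stranded kit in its methods and an NEB stranded kit in the labels, and the strand setting of the counting is not given in the sources used here.

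A gene was tested where 3 or more libraries had 5 or more counts, in R 4.3.3 with edgeR 4.0.16 (quasi-likelihood test, TMM, Benjamini-Hochberg), with a batch term for mRPE and a gene was called where the adjusted p was below 0.05 and the log2 fold change exceeded 1.2 in size. KO26 was fitted with all 9 libraries. DESeq2 1.42.0 was an alternative. Standard errors are the absolute log2 fold change over the square root of F. The rod level used log2 CPM with a prior count of 2. Exon lengths and overlaps came from GENCODE vM39 (GRCm39, the build of the counts). The fits were tested on simulated data. The members and lists were chosen with earlier results of these data known. Named are all members, the 4 genes of highest mean CPM in a list described, the 10 genes most like the rod level and *Prom1*. *Rpe65*, *Rgr*, the overlapping genes and the ratios of gene pairs were chosen after their values were seen. Alternatives were other scaling, filters and tests, no batch term, no fold limit, leaving out each library, and, after seeing the data, the rod level as a term. 1 gene of the lists is not reported here.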

Additional observations from a re-analysis of the deposited data

Results flagged for a closer look

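In WT mRPE, *Gnb1* was 187.7 CPM in the batch 8995 library against 109.8 to 113 CPM in the other 3, a gap larger than Dixon's 95% critical value for 4 samples, in 1 of 19 genes examined. About 1 in 20 such groups passes by chance. In batch 8995 *Gnb1* was also higher in KO22 (323.5 CPM, against 210.1 and 231.1) and in KO26 (221.0 CPM, against 127.1), and the part of the batch was not tested for this gene.

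The effect against WT differed between the clones in the test of KO22 against KO26 (edgeR, 9 libraries) for *Abca4*, at a log2 difference of -2.11, for *Rdh12*, at -2.84, and for *Rcvrn*, at 2.16. That is 1 gene higher and 2 lower of the 19 tested, with 3797 of all 20737 genes called (18.3%). None of these members was called with no batch term, and each call was lost without certain single libraries. *Rdh12* had 0, 5 and 1 counts in KO22 and 11 and 7 in KO26. *Rcvrn* moved with the overlapping gene *Glp2r*, as given above, which was not tested.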

How the results depend on the processing

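In RPE/choroid, members called lower numbered 0 in the fit on genotype alone, and 1 with DESeq2's Wald test (*Slc24a1*, log2 fold change -2.24, adjusted p = 0.00186) and with the rod level as a term. With the rod level as a term and 1 library left out they numbered 0 to 2. None was called higher under any alternative. All genes called lower numbered 47, and 9 to 84 under other edgeR settings of the fit on genotype alone and 189 with DESeq2. In KO22 against WT mRPE the 3 members called lower became 1 to 6 when a library was left out, 6 without WT 1 or KO22 1 and 1 without KO22 3, and the 1 called higher became 2 with no fold limit. In KO22 against KO26 mRPE the 1 called higher became 0 with no batch term and 2 with no fold limit, and 0 to 1 when a library was left out, 0 without KO22 1 or 2, KO26 1, or WT 2, 3 or 4. The 2 called lower became 0 with no batch term and 1 to 3 when a library was left out, 1 without KO22 3, KO26 1 or KO26 2 and 3 without KO22 1 or KO22 2. KO26 against WT gave 0 throughout. Causes of these changes were not tested. Depth limits the mRPE values, as *Rdh12*, *Abca4* and *Rcvrn* rest on 0 to 34 counts per library. No paired analysis was possible because the groups share no replicate number in the labels.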
